A study of Mus musculus with 240 samples.

Results

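The libraries described here are those with the highest and the lowest score over 6 genes used as a readout of the MAPK pathway, among small samples of mouse oligodendrocyte precursor cells (OPCs). Each ten-cell library was scored by the mean log2(CPM + 1), with CPM the count scaled to a total of 1000000 excluding spike-ins, of these genes: Dusp6, Spry2, Spry4, Spred1, Etv5 and Ccnd1. Within each time, the 14 highest of 56 ten-cell libraries were set against the 14 lowest, so that 56 of 112 ten-cell libraries, out of 240 libraries in the series, enter the comparison. All of them carried the genotype Trp53-/- Nf1-/- and were taken at 12 or 90 days after tamoxifen treatment began (dpi). Captured cells came from 8 µm brain sections cut out by laser, and their cDNA was amplified by PCR. The same rule was applied to pool-and-split libraries, which are control samples of the same genotype and times, with 10 high and 10 low of 40 at each time. The driver of the recombination and the age of the mice are not given in the sources used here, and no wild-type ten-cell library is analysed here. The groups were selected on the score, so the 6 score genes are each described with no test and were left out of the genes called between classes. They do count among the genes detected, and the spread of the score is built from them. In the ten-cell libraries the number of genes detected moved with the score at both times, and the spike-in share did at 12 dpi. MAPK output and the recovery of RNA therefore cannot be told apart in these classes.

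OPCs are the dividing glial progenitors of the adult brain, and they can give rise to glioma. Growth factors bind receptor tyrosine kinases on their surface, the adaptor Grb2 and the exchange factor Sos1 then load RAS with GTP, and RAS switches on the RAF, MEK and ERK kinases. Neurofibromin, the product of Nf1, turns RAS off again, and p53, the product of Trp53, halts the cycle of damaged cells. Active ERK induces its own brakes (the phosphatase Dusp6 and the Sprouty and Spred proteins), the ETS factor Etv5 and cyclin D1 (Ccnd1), which is why these genes are read as MAPK output.

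In units of 1000000, total counts ran from 1.64 to 6.49 in ten-cell (median 4.24) and from 1.91 to 5.16 in pool-and-split libraries (median 3.80). Within a time the libraries fall into 4 sets by sex and by a number ending each label, whose meaning the labels do not give. At 12 dpi the high class drew 6, 1, 4 and 3 libraries from female 1, female 2, male 1 and male 2, and the low class 3, 4, 4 and 3. At 90 dpi these were 4, 1, 3 and 6 against 3, 2, 4 and 5. Nothing says which libraries of a set came from separate animals, so p-values measure the spread between these libraries, which may be technical. 1 library, opc12-23 (male 2, high class, 12 dpi), stood apart with 3324 genes detected and the lowest total count, and where the call of a gene named below ends without it, this is said beside the gene. Without it 667 genes were called at 12 dpi, against 578 with it.

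The scores of the high class at 12 dpi ran from 2.14 to 3.63 and those of the low class from 0 to 1.10. The nearest library below the high class had 2.12 and the nearest above the low class 1.16, so the borders cut through a continuum. At 90 dpi the high class had 2.92 to 4.58 (next below, 2.90) and the low class 0.73 to 2.04 (next above, 2.06). The median of all 56 libraries was 1.68 at 12 dpi and 2.44 at 90 dpi. No library tied with its neighbour at a border.

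**Figure D1:**
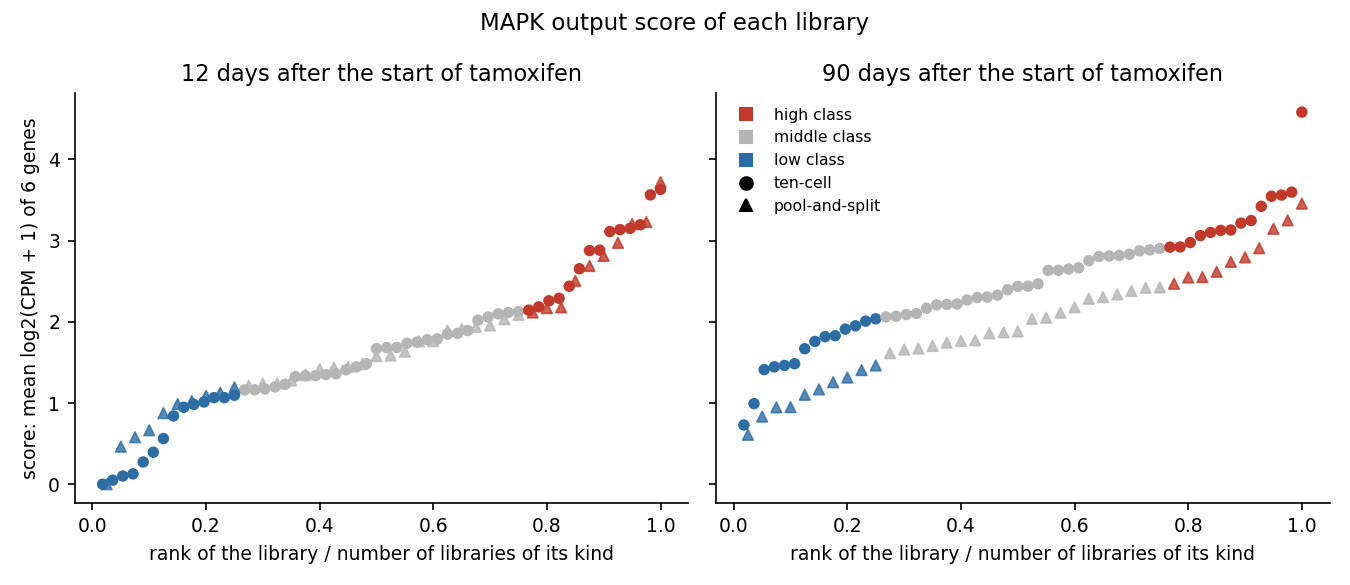
Score of every library (vertical axis, mean log2(CPM + 1) of 6 genes) against its rank divided by the number of libraries of its kind and time (horizontal axis), circles for ten-cell and triangles for pool-and-split libraries, coloured by class. Scores rise without a gap at the class borders, and at 12 dpi the ten-cell libraries (0 to 3.63) and the controls (0 to 3.72) cover much the same range.

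Etv5, Spred1 and Dusp6 were detected in every high library at both times. Etv5 (ENSMUSG00000013089, GRCm38 chromosome 16, 22381309 to 22439719) lay at 12.9, 61.3 and 180 CPM (lowest, median, highest) in the high class at 12 dpi and was detected in 14 of 14 libraries. In the low class it lay at 0, 0.403 and 34.0 CPM, with 8 of 14 libraries detecting it. Spred1, which restrains RAS together with neurofibromin, was at 9.73, 42.6 and 620 CPM against 0, 0.465 and 7.07 CPM at 12 dpi, so here the classes did not overlap. Dusp6 was at 0.991, 4.61 and 8.07 CPM against 0, 0.408 and 5.36 CPM, and the classes overlapped.

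The other score genes were mostly listed at 0. Ccnd1 was detected in 7 of 14 high and 0 of 14 low libraries at 12 dpi, and in 11 of 14 and 0 of 14 at 90 dpi, where its median in the high class was 35.6 CPM. Spry4 was detected in 6 and 0 libraries at 12 dpi but in 1 and 4 at 90 dpi, and Spry2 in 8 and 4 and in 8 and 2. A high library detected 3 to 6 score genes at 12 dpi (median 4) and a low library 0 to 4 (median 2). At 90 dpi these were 3 to 6 (median 4) and 2 to 4 (median 3). Etv5 at 90 dpi was found in all 28 libraries, at 78.6, 119.5 and 220 CPM in the high and 0.94, 35.1 and 196 CPM in the low class.

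High-score libraries detected more genes. At 12 dpi a high library had an expected count above 0 for 3324, 10219.5 and 12640 genes (lowest, median, highest). In a low library this held for 4014, 5907 and 9750 genes. Expected counts can be fractions, so genes with less than 1 count are included. Of the 14 high libraries, 13 lay above the median of the low class and 7 above every low library. The difference of means was 3804 genes (9979 ± 2453 against 6174 ± 1544, SD, n = 14 each; two-sided permutation within sets, p = 9.0e-05, adjusted p = 0.00144 over 16 such tests). Without library opc12-23 it was 4316 genes (adjusted p = 0.00048). Within the sets it was 5782 genes in female 1, 6563 in female 2 (1 high library), 2595 in male 1 and 1608 in male 2.

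The gap was smaller at 90 dpi, where high libraries detected 7754, 10750 and 13076 genes and low libraries 6318, 9092 and 11279. The difference of means was 1728 genes (permutation adjusted p = 0.0238), and the adjusted p lay between 0.0516 and 0.103 when any 1 of the 4 sets was left out. Its sign was the same in each set, from 747 genes in female 1 to 2620 in female 2. The total counts of the classes lay close together, with medians of 4349930 and 4314250 at 12 dpi (adjusted p = 0.920) and 3944690 and 3901940 at 90 dpi (adjusted p = 0.603). The share of mitochondrial counts differed by -1.37 and -0.741 percentage points (adjusted p = 0.603 at both times).

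Spike-ins took a larger share of the low libraries at 12 dpi. These added RNAs made up 0.223%, 1.26% and 5.24% of all counts in the high class and 1.60%, 8.11% and 17.5% in the low class, a difference of -6.31 percentage points (permutation adjusted p = 0.0020). None of the 14 high libraries exceeded the median of the low class. At 90 dpi the medians were 2.51% and 3.74% (adjusted p = 0.352). In samples of this kind fewer captured cells and less RNA per cell cannot be told apart.

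Pool-and-split libraries showed a related difference in genes detected. At 12 dpi the high controls had a median of 9487 and the low controls 6787 genes (difference of means 1786, permutation adjusted p = 0.140). At 90 dpi these were 9956.5 and 7683 genes (1554, adjusted p = 0.0238). Their spike-in shares had medians of 5.38% and 4.01% at 12 dpi (adjusted p = 0.920) and 5.59% and 10.5% at 90 dpi (adjusted p = 0.111). At 12 dpi the 10 low controls included 6 from female 1 and none from male 1, while the high controls had none from female 1 and 4 from male 1. The permutation within sets at 12 dpi therefore rests on female 2 and male 2, with 3 high and 2 low controls each.

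The spread of the score was compared between ten-cell and control libraries. Centred on the median of its set, it had an SD of 0.857 over 56 ten-cell and 0.708 over 40 pool-and-split libraries at 12 dpi (ratio 1.21, two-sided permutation p = 0.196, adjusted p = 0.392). At 90 dpi the SDs were 0.716 and 0.689 (ratio 1.04, p = 0.818, adjusted p = 0.818). A p above the threshold does not show that the spreads are equal.

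At 12 dpi many genes outside the score rose with it. Of 9759 genes that passed the low-count filter, 578 differed between the classes at a Benjamini-Hochberg adjusted p under 0.05 in edgeR's quasi-likelihood test with set as a term, which is 5.92%. High libraries had more of 526 of them (5.39%) and less of 52 (0.533%). The median log2 change over all genes tested was 1.12, so each change stands against that shift. Fitted without the set term, the median was -0.17 and the split was 451 higher to 167 lower. Scaled by spike-ins, the median was 4.64 and 6833 of 6834 called genes were higher. DESeq2 called 3258 genes, and the fit without female 1 called 99.

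Genes that rose were scarce ones and those that fell were abundant. In 4 equal bins of average abundance, from lowest to highest, 264, 171, 76 and 15 genes were higher and 1, 1, 2 and 48 lower. The median log2 change went from 2.16 through 1.96 and 1.11 to -0.11. A gene called higher was detected in a median of 11 of 14 high and 3 of 14 low libraries, and 42 of the 526 were found in no low library. Genes called lower were detected in a median of 14 libraries of either class. Of these 52, 7 are annotated as pseudogenes, as are 5 of the 526 higher genes. Reads of pseudogenes can belong to near-identical parent genes. Their share over all genes tested is not given here, so nothing is read from these counts.

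**Figure D2:**
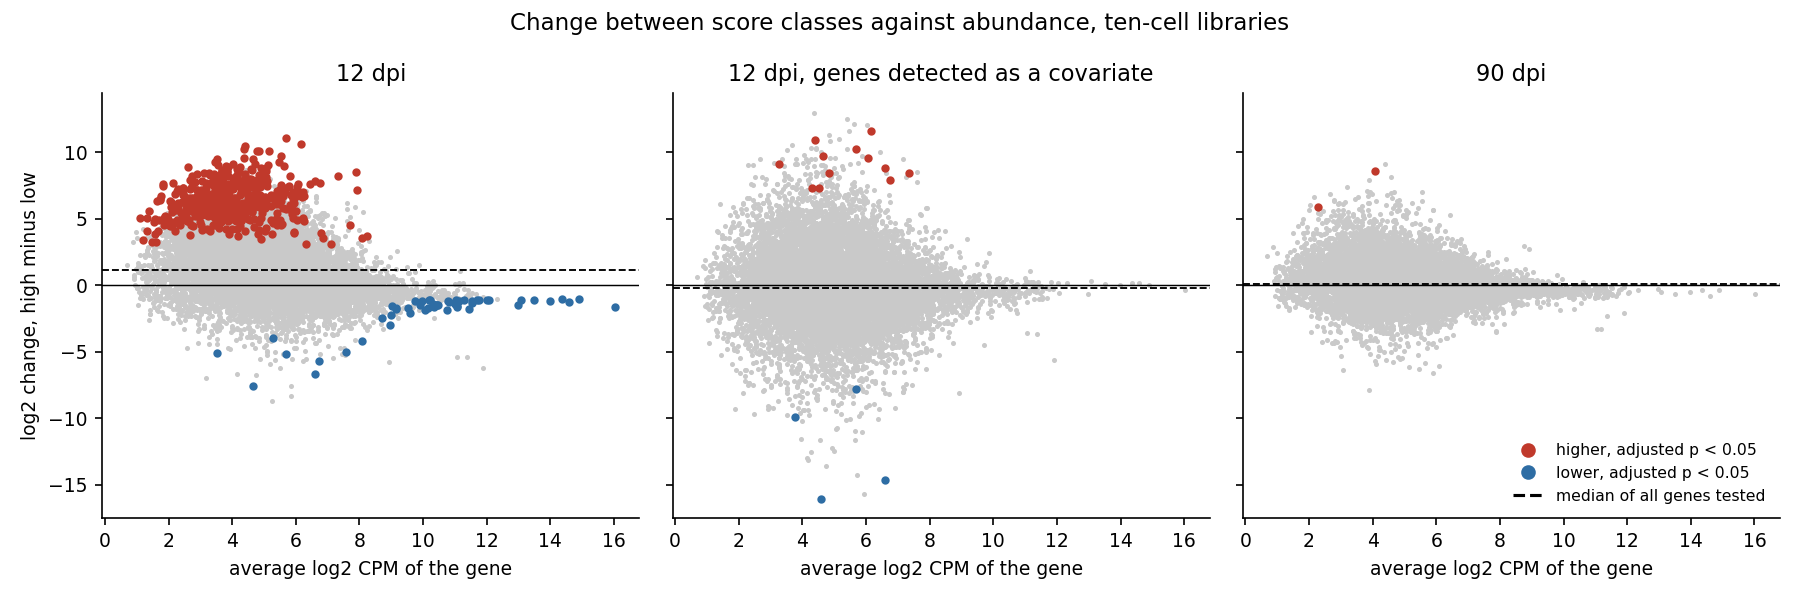
Log2 change between high and low ten-cell libraries (vertical axis) against average log2 CPM (horizontal axis) for 9759 genes at 12 dpi, at 12 dpi with genes detected as a covariate, and at 90 dpi; coloured points have an adjusted p under 0.05 and the dashed line is the median of all genes. There are 578, 16 and 2 coloured points, and at 12 dpi the higher ones lie at low and the lower ones at high abundance.

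The largest fitted rise at 12 dpi among called genes of above-median abundance was that of Dusp26 (ENSMUSG00000039661, GRCm38 chromosome 8, 31089471 to 31097047), a dual-specificity phosphatase of the family that includes Dusp6. It lay at 0, 53.6 and 373 CPM in the high class, with 13 of 14 libraries detecting it, and at 0 in all 14 low libraries. The mean of the high class, 93.5 CPM, was therefore at least 1859-fold higher, with the floor set at 3 counts over the low group (fitted log2 change 11.05, SE 1.88, edgeR adjusted p = 0.0019). The fitted value is no bound. This bound and those below use class means and hold for counts of amplified cDNA. They do not cover RNA lost before amplification, so they do not bound the difference between the cells. At 90 dpi the classes overlapped, with medians of 15.9 and 3.93 CPM and detection in 12 and 10 libraries (log2 change 0.81, adjusted p = 0.999).

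Vps13a, a lipid transfer protein of membrane contact sites (chromosome 19, 16615366 to 16780933), was detected in 10 high libraries at 12 dpi and in no low one. Its values were 0, 5.71 and 3138 CPM, and the highest was that of opc12-23 (at least 5128-fold higher, fitted log2 change 10.60, SE 2.00, adjusted p = 0.0029). Without opc12-23 the bound was 722-fold, and the call held. Sertad4 (chromosome 1, 192844488 to 192855756) was found in 13 high libraries at 0, 20.6 and 882 CPM and in no low one (at least 1810-fold higher, fitted log2 change 10.08, SE 2.12, adjusted p = 0.0052). Without opc12-31, its highest library, the bound was 600.4-fold. At 90 dpi Vps13a was detected in 11 and 7 libraries and Sertad4 in 7 and 7.

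Of the other large rises, Fundc1, a receptor for mitophagy, Pard6g, a polarity protein, and Rab2b, a small GTPase of vesicle traffic, changed by 9.74, 9.29 and 9.06 on the log2 scale. Dcaf12l1, Zfp30, Actn2 (an actin crosslinker) and Thap11 (a zinc-finger factor) followed with 8.97, 8.83, 8.58 and 8.19. Their adjusted p ran from 0.0041 to 0.0236. Each was detected in 11 to 14 high and 1 to 4 low libraries. Fundc1 and Pard6g lost their calls without female 1. Rab2b lost it without female 1, female 2 or male 1, and Zfp30 and Actn2 without female 1, male 1 or male 2. Thap11 and Dcaf12l1 kept them without any 1 set.

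Fewer genes fell. Mfge8, a secreted bridge for phagocytosis, had medians of 184 and 592 CPM (-2.45, adjusted p = 0.0496) and Ran, the GTPase of nuclear transport, 279.9 and 574 CPM (-2.22, adjusted p = 0.0479). The ranges of both genes overlapped, and neither of these calls held without opc12-23. Both also ended without female 1, female 2 or male 2. Fuca1, a lysosomal fucosidase, and Sod3, an extracellular superoxide dismutase, changed by -5.01 and -4.15. Neither of these 2 calls held without female 1 or male 2, and that of Sod3 ended without female 2 as well.

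For some falls the medians lay close together or went the other way. Eif2d changed by -5.71 although its median was 5.93 CPM in the high and 0.148 CPM in the low class, where 1 library reached 1205 CPM. Its call ended without opc12-23, without female 1 and without male 2. Ap2s1, a clathrin adaptor subunit, changed by -2.99 with medians of 144 and 156 CPM and a highest low library of 5511 CPM. Further large falls were those of 4931406C07Rik (-5.13) and the pseudogene Rpl17-ps5 (-3.96), beside Ntrk2, which is given below. Like Ap2s1, 4931406C07Rik lost its call without female 1 or male 2, and Rpl17-ps5 without female 1 or male 1. Scaled by spike-ins, Sod3, Ap2s1, Mfge8, Ran and Ntrk2 all turned to positive values, from 0.18 to 2.00.

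**Figure D3:**
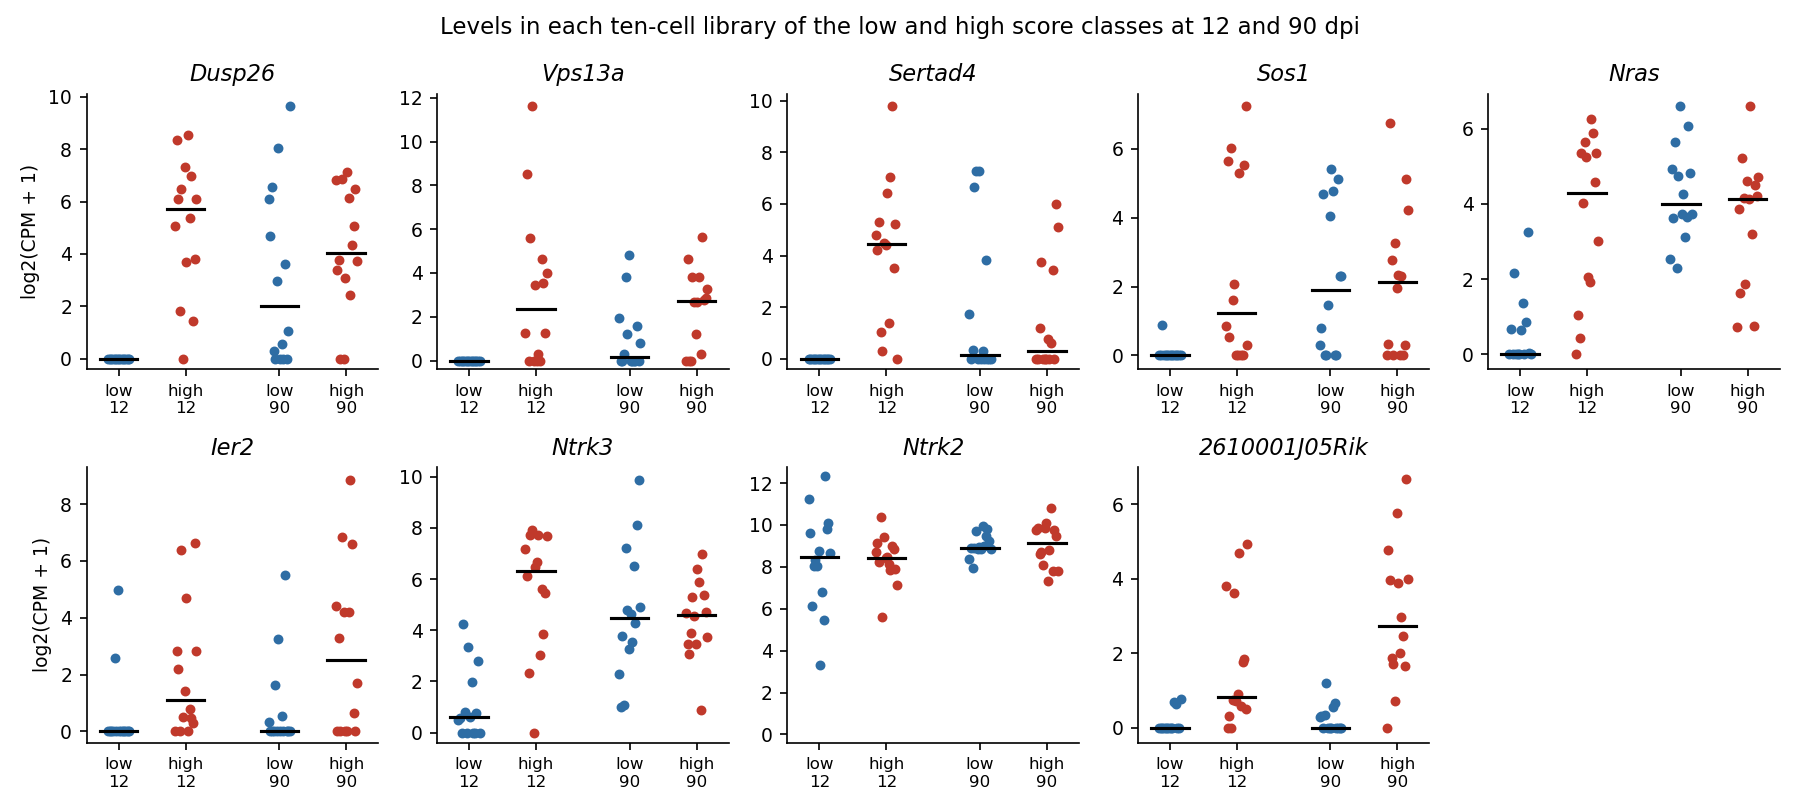
Level of 9 genes as log2(CPM + 1) in each of the 14 low (blue) and 14 high (red) ten-cell libraries at 12 and 90 dpi, with medians as bars. Dusp26, Vps13a and Sertad4 sit at 0 in every low library at 12 dpi but not at 90 dpi, while the classes of Ntrk2 overlap at both times.

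Other genes induced or used as feedback by ERK were taken from a list of 18. Of these, 6 passed the low-count filter (Dusp5, Spry1, Etv1, Phlda1, Ier3 and Epha4), and none was called at 12 dpi, when 5.92% of all genes were, or at 90 dpi (0.0205%). With so few tested, 0 calls is near the background. Their median log2 change was 0.40 at 12 dpi against 1.12 over all genes, and 0.16 at 90 dpi against 0.13. Etv1, an ETS factor related to Etv5 (chromosome 12, 38779380 to 38870484), was at 0, 91.0 and 913 CPM in high and 0, 29.0 and 365 CPM in low libraries at 12 dpi (log2 change -0.55, SE 1.35, adjusted p = 0.856). The fitted sign is opposite to that of its medians and of its means (141 and 88.7 CPM). At 90 dpi it was at 33.6, 134 and 402 against 0.278, 108.9 and 740.5 CPM (-0.29, SE 1.05, adjusted p = 0.999).

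The receptor Epha4 and the brake Spry1 had the lowest p of these 6 genes at 12 dpi, with log2 changes of 2.82 (adjusted p = 0.181) and 2.97 (adjusted p = 0.187). Epha4 was found in 12 high and 5 low libraries and Spry1 in 7 and 2. The phosphatase Dusp5 had 1.36 (adjusted p = 0.870), and Phlda1 and Ier3 had -1.27 and -1.05 (adjusted p = 0.770 and 0.788). The means of Ier3 were 12.7 and 3.76 CPM, opposite in sign to its fitted change. At 90 dpi these 5 genes ran from -3.12 for Spry1 to 1.81 for Phlda1, with adjusted p of at least 0.906.

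The 12 members of that list below the filter were Dusp4, Dusp7, Dusp9, Spry3, Spred2, Spred3, Etv4, Fosl1, Il17rd, Emp1, Epha2 and Myc. Fosl1 was listed at 0 in all 56 libraries. Myc was found in 1 high library at 12 dpi and 1 low library at 90 dpi. Spred2 was found in 6 high and 0 low libraries at 12 dpi and in 8 and 4 at 90 dpi, and the ETS factor Etv4 in 5 and 1 and in 8 and 4. A library detected a median of 7 of the 18 genes in the high and 3 in the low class at 12 dpi, and 9 and 7 at 90 dpi, with the same direction as all genes detected.

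Among immediate early genes, which respond within minutes to ERK and calcium signals, 1 of 9 tested rose at 12 dpi, beside 5.39% of all genes, which is near the background. Ier2 (chromosome 8, 84661331 to 84662852) was at 0, 1.19 and 97.4 CPM in the high class, detected in 11 libraries, and at 0, 0 and 30.6 CPM in the low class, detected in 2 (log2 change 8.29, SE 2.24, adjusted p = 0.0204). The call ended without female 1, male 1 or male 2. Fos had medians of 1.85 and 0 CPM (5.47, adjusted p = 0.0761), Egr1 24.2 and 2.69 CPM (-0.62, adjusted p = 0.848) and Jun 15.8 and 0.921 CPM (-0.49, adjusted p = 0.913). For Egr1 and Jun the fitted change is thus opposite in sign to the difference of medians. The list's median change was 2.08 at 12 dpi and 0.51 at 90 dpi, when none was called.

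Of 9 receptor tyrosine kinases tested, 1 rose and 1 fell at 12 dpi, beside 5.39% and 0.533% of all genes. Ntrk3, the receptor for neurotrophin-3 (chromosome 7, 78175959 to 78738012), was at 0, 78.3 and 239.6 CPM in the high and 0, 0.507 and 17.9 CPM in the low class (log2 change 5.51, SE 1.33, adjusted p = 0.0092). Ntrk2, the receptor for BDNF, which is abundant in astrocytes (chromosome 13, 58806569 to 59133970), was at 48.1, 346 and 1330 CPM in the high and 9.02, 361 and 5110 CPM in the low class. Its change of -2.11 (SE 0.53, adjusted p = 0.0133) goes with a mean of 421 against 875 CPM, while the medians lie close together. Both calls ended without female 1. At 90 dpi neither was called, with changes of -2.09 for Ntrk3 and -0.19 for Ntrk2.

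Pdgfra, the growth factor receptor that defines OPCs, was detected in 12 high and 7 low libraries at 12 dpi, with medians of 4.42 and 0.144 CPM and a highest low library of 1300 CPM (-2.42, adjusted p = 0.464). The fibroblast growth factor receptors Fgfr1, Fgfr2 and Fgfr3 had changes of -1.79, -1.51 and 0.74, with adjusted p of at least 0.592. Egfr, Erbb2, Erbb3, Erbb4, Met and Kit were below the filter. The median of the list was -1.51 at 12 dpi and -0.05 at 90 dpi.

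In the cascade from RAS to ERK, 2 of 16 genes tested rose at 12 dpi and none fell, beside 5.39% and 0.533% of all genes, and nothing particular to the cascade is read from this count. Sos1 (chromosome 17, 80393752 to 80480453) was at 0, 1.43 and 151 CPM in the high class, detected in 10 libraries, and at 0, 0 and 0.835 CPM in the low class, detected in 1 (log2 change 7.60, SE 1.62, adjusted p = 0.0052). Nras (chromosome 3, 103058285 to 103067914) was at 0, 19.1 and 75.7 against 0, 0.00922 and 8.55 CPM, detected in 13 and 7 libraries (4.22, SE 1.27, adjusted p = 0.0360). Sos1 held its call without any 1 set, whereas Nras lost it without female 1, male 1 or male 2.

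The remaining members of the cascade did not pass the test at 12 dpi. Hras had a log2 change of 0.28, Braf 2.87 and Map2k1 0.83, with adjusted p of at least 0.436, and Gab1, a docking protein, had the lowest value with -3.16 (adjusted p = 0.258). The list's median was 1.61 at 12 dpi, near the 1.12 of all genes, and -0.00 at 90 dpi. Araf had the lowest p of the cascade at 90 dpi, at medians of 49.96 and 9.65 CPM (2.21, unadjusted p = 0.0300, edgeR adjusted p = 0.832).

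Of the deleted genes, Nf1 (chromosome 11, 79339693 to 79581612) was too low to test. It was detected in 7 high and 5 low libraries at 12 dpi and in 5 and 7 at 90 dpi, with no more than 98.7 CPM in any of the 56. Trp53 (chromosome 11, 69580359 to 69591873) was detected in 11 and 10 libraries at 12 dpi and 11 and 11 at 90 dpi, with log2 changes of 3.28 (adjusted p = 0.290) and -2.80 (adjusted p = 0.965). Both classes carry the deletions, and the sources used here do not say which exons are removed, so these values do not check the genotype. Of 5 RAS GTPase-activating proteins tested none was called, with Rasal2 at 3.50 (adjusted p = 0.233) and Rasa3 at -0.11 at 12 dpi. With 5.92% of all genes called at 12 dpi and 0.0205% at 90 dpi, 0 calls is near the background.

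**Figure D4:**
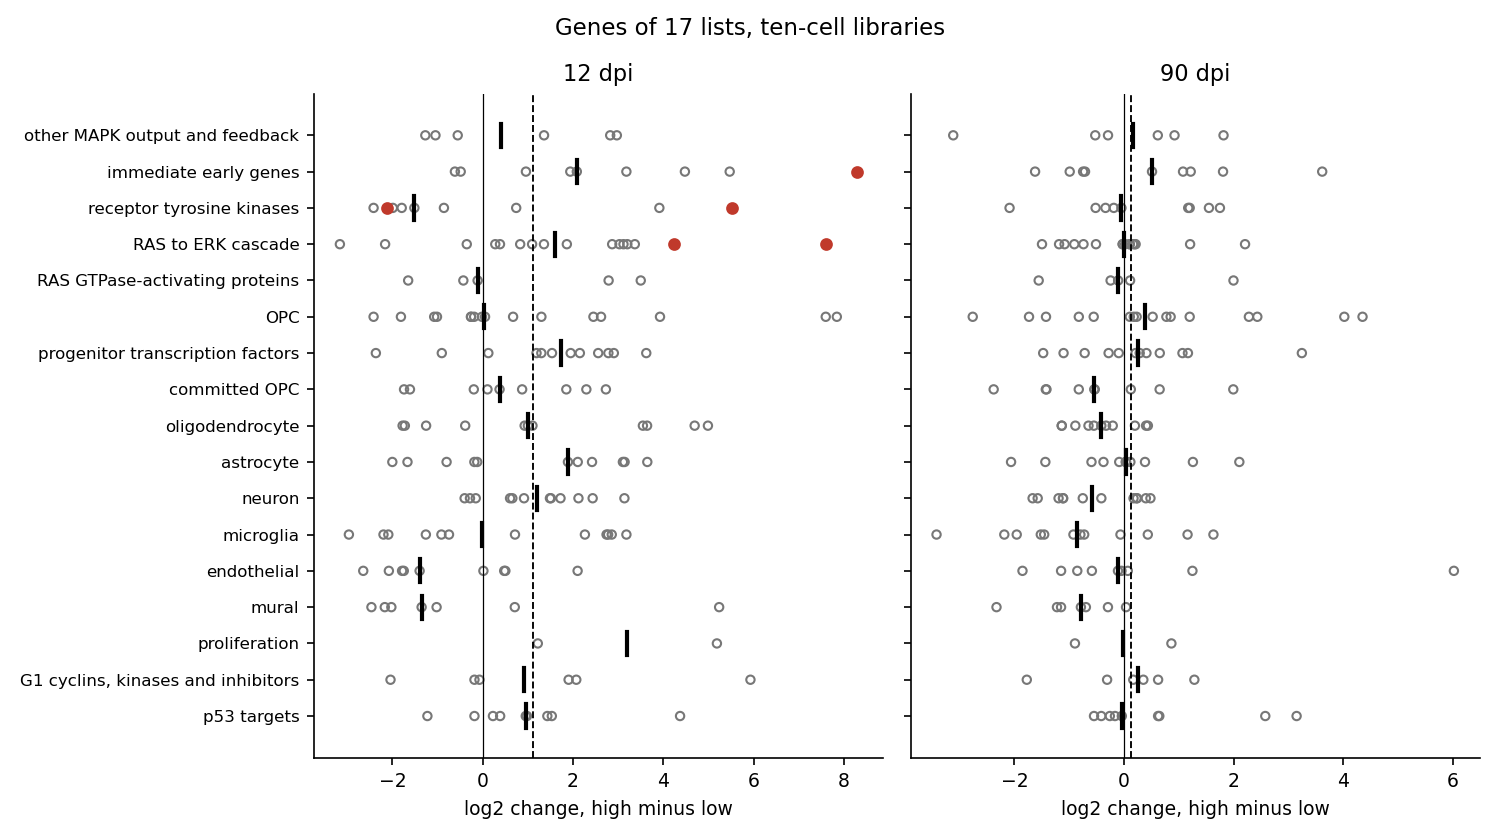
Log2 change between high and low ten-cell libraries of each tested member of 17 gene lists at 12 dpi (left) and 90 dpi (right); filled red points have an adjusted p under 0.05, solid bars are list medians and the dashed line is the median of all genes tested (1.12 and 0.13). The filled points at 12 dpi are 5 genes (Ier2, Ntrk3, Ntrk2, Sos1 and Nras), and there is none at 90 dpi.

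OPC markers were detected in both classes. Of 16 OPC genes tested none was called at either time, beside 5.92% of all genes at 12 dpi and 0.0205% at 90 dpi. For a list this short 0 calls is near the background. The median change was 0.02 at 12 dpi and 0.38 at 90 dpi, against 1.12 and 0.13 over all genes. A high library detected 10 to 16 of the 16 (median 13) and a low one 3 to 15 (median 8.5) at 12 dpi. Their summed CPM had medians of 1446 and 1368 at 12 dpi and 1841 and 1420 at 90 dpi. At 12 dpi these lay below the medians of neuron and astrocyte genes, given below, and in the low class below those of mural and endothelial genes. They lay above those of oligodendrocyte and microglia genes. The lists differ in their genes, so these sums do not give shares of cells. Olig1, a transcription factor of the lineage, was at 55.0, 192 and 802 CPM against 0, 203 and 1871 CPM (-1.81, adjusted p = 0.116). Neu4, a sialidase, came nearest to a call, at medians of 19.0 and 0 CPM and detection in 11 and 3 libraries (7.84, SE 2.54, adjusted p = 0.0507). None of 12 progenitor transcription factors or 9 committed OPC genes tested was called at either time, which again is near the background. The transcription factor Sox2 had the lowest p among progenitor factors at 90 dpi, at medians of 24.6 and 1.77 CPM (3.24, adjusted p = 0.779).

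Genes of other brain cells were detected in libraries of both classes at both times. No neuron (12), astrocyte (11), microglia (12), oligodendrocyte (11), endothelial (9) or mural (7) gene tested was called at either time. Of all genes 5.92% were called at 12 dpi and 0.0205% at 90 dpi, so 0 calls in lists this short is near the background. The summed CPM of the 12 neuron genes was 1111 to 5622 (median 4661) in the high and 381 to 5629 (median 1946) in the low class at 12 dpi, and Gad1, an enzyme of GABA neurons, had medians of 1094 and 345 CPM (0.91, adjusted p = 0.342). The 9 mural genes went the other way, with 0.252 to 5589 (median 587) and 0.289 to 7654 (median 3101), as did the 11 endothelial genes, with medians of 667 and 1705. The other medians at 12 dpi were 2152 and 2054 for 11 astrocyte, 834 and 614 for 13 oligodendrocyte and 332 and 244 for 12 microglia genes, and each pair of ranges overlapped. At 90 dpi the medians were 3275 and 2960 for neuron, 3051 and 2312 for mural and 634 and 399 for endothelial genes. Each of the 12 neuron genes was detected in at least 7 high and 3 low libraries at 12 dpi. The part of these cells in the changes with the score was not tested.

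Genes of the cell cycle were mostly below the filter. Of 22 proliferation genes 2 were tested, Pcna and Mcm6, with changes of 1.22 and 5.18 at 12 dpi (adjusted p = 0.653 and 0.113) and 0.86 and -0.90 at 90 dpi. Mki67 was detected in 2 high and 2 low libraries at 12 dpi and in 2 and 1 at 90 dpi. Of the 6 genes tested among G1 cyclins, their kinases and inhibitors, none was called. Rb1 had the lowest p at 12 dpi (medians 8.50 and 0.461 CPM, log2 change 5.93, adjusted p = 0.0547). Of 9 p53 targets tested none was called, with medians of 0.95 at 12 dpi and -0.04 at 90 dpi. In each of these lists 0 calls is near the background of 5.92% of all genes at 12 dpi and 0.0205% at 90 dpi.

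The calls at 12 dpi shrank once the number of genes detected entered the fit. With it as a covariate, 16 of 9759 genes (0.164%) were called, 12 higher and 4 lower, of which 14 were among the 578 and had the same direction. Without library opc12-23 this fit called 4 genes, of which 2 were among the 578. The median change of the 526 higher genes was 6.33 without and 4.41 with the covariate, and that of the 52 lower genes was -1.50 and -0.95. Both groups were chosen by their change in these same libraries, so what remains in the refit is no separate evidence. Over all genes tested the median was 1.12 without and -0.17 with the covariate. With the spike-in share as a covariate, an alternative chosen after seeing the data, 83 genes were called.

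Dusp26, Vps13a, Thap11 and 4931406C07Rik, named above, remained called with genes detected as a covariate, at 10.21, 11.62, 8.43 and -7.80. The other genes called in that fit, which fall outside the naming rule and were chosen after their values were seen, include Scfd1, a protein of ER to Golgi transport, and Socs5, an inhibitor of cytokine signalling. Scfd1 was at 0.907, 22.7 and 155 CPM in all 14 high libraries and at 0, 0 and 0.463 CPM in the low class, so that the classes did not overlap (log2 change 8.43 without and 9.11 with the covariate). Neither Dusp26, Vps13a, Thap11, 4931406C07Rik, Scfd1 nor Socs5 remained called in this fit without opc12-23. None of the 5 called list members (Ier2, Ntrk2, Ntrk3, Sos1 and Nras) remained called with the covariate.

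At 90 dpi 2 of 9759 genes (0.0205%) were called, both higher in the high class, and 542 had an unadjusted p under 0.05. 2610001J05Rik (chromosome 6, 13867735 to 13871518), was at 0, 5.71 and 100.2 CPM in the high and 0, 0 and 1.30 CPM in the low class, detected in 13 and 6 libraries (log2 change 5.89, SE 1.12, adjusted p = 0.0177). It was the 1 gene called at both times. At 12 dpi it was at 0, 0.772 and 29.6 against 0, 0 and 0.70 CPM (4.78, SE 1.13, adjusted p = 0.0088). Its call at 12 dpi ended without female 1 and with the score as a continuous term. It also ended with genes detected or the spike-in share as a covariate. Tyw1, an enzyme of tRNA modification (chromosome 5, 130255619 to 130341563), lies outside the naming rule and was chosen after its values were seen. It was detected in 10 and 2 libraries at 90 dpi (8.62, SE 1.74, adjusted p = 0.0379) and had 1.98 at 12 dpi (adjusted p = 0.413). Without any 1 set neither call at 90 dpi held. DESeq2 called 228 genes and limma 7, and with genes detected as a covariate 0 genes (0%) were called in edgeR, with 605 at an unadjusted p under 0.05.

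Of the 526 genes higher at 12 dpi, 323 had a positive change at 90 dpi, where 54.0% of all genes did, and their median change there was 0.53. Of the 52 lower genes, 45 had a negative change at 90 dpi, with a median of -0.53. The share positive at 90 dpi also varied with abundance, at 64.3%, 57.9%, 52.5% and 41.1% from the lowest to the highest bin. In the lowest bin, which held 264 of the 526, the median change of all genes at 90 dpi was also 0.53. In the highest, which held 48 of the 52, it was -0.17. No agreement between the times is read from these counts.

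Over all 9759 genes tested, the change at 90 dpi minus that at 12 dpi had a median of -0.91, and 35.7% were positive. The change with the score differed between the times for 48 genes (0.492%), of which 46 were also called at 12 dpi. The change at 90 dpi was below that at 12 dpi for 47 of them, which is also the direction of most genes tested. The largest such differences (90 minus 12 dpi) were those of Bcl9, a coactivator of Wnt signalling (-13.30, adjusted p = 0.0237), Gpr173, an orphan receptor (-13.26, adjusted p = 0.0369), and Plscr3, a scramblase of mitochondria (-12.91, adjusted p = 0.0236). Gpr173 was detected in 12 high and 0 low libraries at 12 dpi (at least 581-fold higher) and in 4 and 8 at 90 dpi. Sh2b2, an adaptor of receptor tyrosine kinases, had the 1 difference in the other direction (11.08, adjusted p = 0.0236), detected in 5 and 5 libraries at 12 dpi and in 9 and 3 at 90 dpi. The difference of Bcl9 lost its call without any 1 of the 4 sets, and those of Gpr173, Plscr3 and Sh2b2 each held without 1 of the 4. Without male 2 edgeR called 0 genes (1046 at an unadjusted p under 0.05), limma called 0 (995), and without male 1 edgeR called 215.

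The same rule applied to the pool-and-split controls called 0 of 8555 genes at 12 dpi (0%) and 0 at 90 dpi (0%) in edgeR, with 835 and 680 at an unadjusted p under 0.05. Their median changes over all genes were 0.34 and 0.42. DESeq2 called 1006 and 688 genes in them. The controls had 10 libraries a class against 14. At 12 dpi female 1 held no high and male 1 no low control. With set as a term, the class change of the controls at 12 dpi thus rests on female 2 and male 2, with 3 high and 2 low libraries each. For these reasons the counts are not set against those of the ten-cell libraries by a test, and 0 calls is no clean background for them.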

How the data were processed

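The authors deposited, for each gene and library, expected counts estimated by RSEM, and these are not scaled. Per the submitters' processing notes, Bowtie2, RSEM and GRCm38 were used, with no version given in the sources used here. Gene coordinates are those of the deposited table. PCR copies were counted, since the sources used here name no molecular identifiers.

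Counts were rounded. The 92 spike-ins were left out of CPM and tests. Classes follow the score. The members, gene lists and tests were chosen with earlier results of these data known. After filterByExpr (min.count 10, min.total.count 15) and TMM scaling, genes were tested in edgeR 4.0.16 (R 4.3.3) by quasi-likelihood F test, with class within time and set as terms and 56 libraries in 1 fit. The score genes were removed before Benjamini-Hochberg adjustment, and calls are at 0.05. The pipeline was tested on simulated data. Library measures were compared by permuting classes within sets (100000 resamples, two-sided, numpy 2.4.6). Named genes are the targeted genes, the other MAPK genes, and per time the 10 largest rises and falls among called genes above the median abundance and detected in at least 7 libraries of the higher class. Of each further list up to 3 rises and 3 falls are named, or the member with the lowest p. Genes called at both times and up to 3 differences between times per direction are also named. Further list members, among them Fos, Egr1, Jun, Pdgfra, Olig1, Gad1, Pcna and those of the cascade from RAS to ERK that were not called, are examples chosen after their values were seen. Some genes that the rule or the lists hold are not reported here. Alternatives were DESeq2 1.42.0, limma 3.58.1 on log2(CPM + 1), other scalings, filters and covariates, each time alone, and leaving out sets. The spread of the counts was large, with a common biological coefficient of variation of 1.95.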

Additional observations from a re-analysis of the deposited data

Results flagged for a closer look

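These results were picked out because the change with the score differed between 90 and 12 dpi by edgeR's test of the difference itself, called at 0.05 after Benjamini-Hochberg adjustment across every gene tested. This held for 48 genes in the ten-cell libraries, beside a median difference of -0.91 over all genes tested, but the calls depended on the sets. The same test called 0 genes without male 2, so none of those named here held. It called 4 without female 1 (1 of the 48), 17 without female 2 and 215 without male 1, and limma called 0. Bcl9 (-13.30), Gpr173 (-13.26), Plscr3 (-12.91), Sertad4 (-10.9999), Thap11 (-10.59), Dusp26 (-10.24), Chkb (-9.13), Vps13a (-9.08), Sos1 (-8.11) and Ntrk3 (-7.60) had a lower change at 90 dpi, in log2 units of 90 minus 12 dpi. Sh2b2 (11.08) had a higher one. Their adjusted p ran from 0.0189 for Chkb, a choline kinase, to 0.0440 for Sertad4. For Dusp26, Vps13a, Sertad4 and Gpr173 the low class at 12 dpi was listed at 0 throughout, so the fitted differences are no bounds. No library stood apart from its class by Dixon's criterion in 20 groups of control libraries tested.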

How the results depend on the processing

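No paired analysis was possible because replicate numbers are library labels, which tie no high library to a low one. The set of each library was a term of the fit. At 12 dpi edgeR called 578 genes. The count was 16 with genes detected as a covariate, 4 with that covariate and without library opc12-23, 83 with the spike-in share as a covariate, 373 with the score as a continuous term, 3258 with DESeq2, 2209 with limma, 6834 with spike-in scaling and 1050 with no filter. It ran from 99 to 1178 when 1 set was left out.

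At 90 dpi 2 genes were called. The count was 9 with no set term, 8 with each time fitted alone, 228 with DESeq2, 7 with limma and 1 with the spike-in share as a covariate. It was 0 with genes detected as a covariate (with or without opc12-23), the continuous score, spike-in scaling, no filter and a mean of at least 10 CPM, and 0 when any 1 set was left out.

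The 48 differences between times became 247 with no set term, 10 with genes detected as a covariate (14 also without opc12-23), 28 with the continuous score, 1256 with DESeq2, 0 with limma, 2849 with spike-in scaling, 212 with no filter and 13 with the spike-in share as a covariate. They ran from 0 to 215 when 1 set was left out. In the controls, DESeq2 called 1006 and 688 genes at 12 and 90 dpi, no filter gave 2 and 5, and the continuous score gave 6 at 90 dpi.

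Spike-in scaling reversed the sign at 12 dpi of Etv1 (4.44), Sod3 (0.18), Ap2s1 (0.50), Mfge8 (1.51), Ran (1.45), Ntrk2 (2.00), Mbp (2.40), Rasa3 (3.94) and Cdk6 (3.38). Where a count or sign moved, the cause was not tested.

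Leaving out 1 set, the difference in genes detected ran from 1494 to 1985 in ten-cell and from 1306 to 2051 in control libraries at 90 dpi. Permuting over all libraries, that of the controls was 1785.6 at 12 dpi (adjusted p = 0.0432) and 1553.5 at 90 dpi (adjusted p = 0.0704). The difference in total count at 12 dpi ran from -250421 to 197514 (195954 without opc12-23), and in controls from -146684 to 154281. The mitochondrial share ran from -2.90 to 0.52 at 12 dpi, from -1.91 to 0.72 at 90 dpi, and from -0.36 to 2.71 in controls at 12 dpi. The log2 ratio of score spreads at 90 dpi was -0.024 with a pseudocount of 0.1 and ran from -0.062 to 0.105 without 1 set.

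The fits with the spike-in share, every result without opc12-23, and the fold bounds without a gene's highest library were chosen after seeing the data. Many genes were at 0 in most low libraries, so a lower level there was not detectable at this depth.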
